A study of Mus musculus with 20 samples.

Results

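The citric acid cycle enzymes were followed here through 10 nuclear genes that encode enzymes of the mitochondrial matrix: Cs, Idh2, Idh3a, Idh3b, Ogdh, Dlst, Sucla2, Suclg1, Fh1 and Mdh2. They were chosen by name, and each was represented by the probe set of highest mean among those whose annotation held that symbol alone. All 10 were on the array and all 10 passed the expression filter, out of 18193 genes with such a probe set, of which 12082 passed and were tested. The cycle oxidizes the acetyl group of acetyl-CoA to carbon dioxide and passes the electrons to the respiratory chain as NADH and reduced flavin. Heart muscle works almost without pause on oxidative fuel, and its cells are dense with mitochondria that carry these enzymes. Estrogens act through the receptors ERα and ERβ, which bind DNA as well as coregulators and are known for effects on energy metabolism in the heart.

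The samples were 20 heart ventricles of female C57BL/6 mice, ovariectomized at 8 weeks of age, each measured on 1 array, and ovariectomy, which removes the main source of circulating estrogen, was shared by every group. Each mouse then carried an Alzet minipump of model 1004 for 4 weeks, filled with a cyclodextrin-complexed estrogen or with placebo solution. The 4 groups of 5 samples were 16α-LE2 (an agonist of ERα per the labels), estradiol, a group titled beta, and placebo. The beta-titled samples carry a treatment label of control solution, so what they received is not settled and they are called beta-titled throughout. Doses are not in the labels, so the compounds were compared after the same time but not at a known common dose. The labels do not tie each sample to an animal in so many words, and the p-values measure only the spread between samples of a group. Values are the deposited log2 array values, on which a difference of 1 is 2-fold. Whole ventricle was measured, so a lower value from fewer cells of a type and one from less RNA per cell cannot be told apart.

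Ventricle samples read as cardiac muscle: the mean log2 value of 10 cardiomyocyte markers (Myh6, Tnnt2 and others) lay between 13.78 and 14.19 on every array. Ucp1, the defining gene of brown fat, which is also rich in mitochondria, stayed below the expression filter at a mean of 6.50. Elovl3 of the brown fat list was below it too, while Cidea of that list passed it at a mean of 10.12. The part of brown fat in the samples was not tested. Estradiol replicate 33 stood apart from the other arrays, with Spearman correlations of 0.922 to 0.941 against 0.978 to 0.992 among the rest. Beta-titled replicates 31 and 32 had the narrowest spread of values, with an SD over the array of 1.32 and 1.30 log2 units, and the comparisons of the 10 genes with the beta-titled group are also given without them. Quantile normalization, which gives all arrays the same distribution, is set beside the results. So is a scaling in which each array was centred on its median and scaled to the same median absolute deviation, a measure of spread other than the SD.

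The promoter sequences of 9 of the 10 genes were found in RefSeq (GRCm38.p6), as windows from 250 bases before the start site to 50 after it. The 9 genes had 14 such windows, since Ogdh has 6. A consensus estrogen response element, GGTCANNNTGACC, was present in none of them, and in 0.07% of all 32851 promoters. The estrogen-related receptor element TCAAGGTCA was also in none (0.423% of all promoters), and so was the NRF-1 element GCGCATGCGC (0.971% of all). The ETS element CCGGAAG, the letters that factors such as GABP bind, was found in Idh3b and Dlst, and in 8.86% of all promoters. Both strands were searched, and the estrogen-related receptor element ends in GGTCA, which is also the first arm of the estrogen response element, so that their matches can overlap. The windows of Idh3b and Dlst are shown because they hold the only motif found. That of Suclg1 is shown because its deposited values followed the mean of the other cycle genes most closely, which they did not after quantile normalization. Each is printed up to 30 bases after the start site, which is base 251, with the ETS letters in capitals as they read on the opposite strand (bases 246 to 252 in Idh3b and 252 to 258 in Dlst).
Idh3b (chr2:130284422-130284701, minus strand): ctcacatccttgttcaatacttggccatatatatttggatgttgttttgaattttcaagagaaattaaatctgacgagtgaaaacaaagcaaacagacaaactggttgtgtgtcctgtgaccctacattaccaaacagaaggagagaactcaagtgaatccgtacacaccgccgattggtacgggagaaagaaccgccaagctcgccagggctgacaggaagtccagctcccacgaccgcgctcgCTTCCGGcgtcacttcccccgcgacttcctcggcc
Dlst (chr12:85110583-85110862, plus strand): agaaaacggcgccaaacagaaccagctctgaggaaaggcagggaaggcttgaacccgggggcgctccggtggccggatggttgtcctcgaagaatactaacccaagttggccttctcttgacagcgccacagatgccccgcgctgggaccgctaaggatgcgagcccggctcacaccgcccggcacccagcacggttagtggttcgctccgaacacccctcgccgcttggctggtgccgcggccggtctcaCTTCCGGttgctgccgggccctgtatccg
Suclg1 (chr6:73248255-73248534, plus strand): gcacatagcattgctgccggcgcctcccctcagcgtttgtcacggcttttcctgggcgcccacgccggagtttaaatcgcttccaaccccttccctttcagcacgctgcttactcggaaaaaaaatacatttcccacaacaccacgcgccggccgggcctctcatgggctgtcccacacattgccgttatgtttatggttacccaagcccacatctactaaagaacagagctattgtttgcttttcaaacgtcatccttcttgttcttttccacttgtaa
A match in these letters is a description of the sequence and does not show binding.

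None of the 10 genes passed the test in any comparison. In 60 tests, 10 genes in each of 6 comparisons, no adjusted p was under 0.05, where 0% to 0.223% of all genes passed by comparison. In no comparison did the values of a gene in one group lie clear of those in the other, as they did for 0.397% to 3.28% of all genes. The probe sets were bright, with means over the 20 arrays that ran from 11.17 for Dlst to 13.35 for Mdh2. The mean of every gene was lowest in the beta-titled group. It was highest with 16α-LE2 for Idh2, with estradiol for 3 genes (Cs, Ogdh and Mdh2) and with placebo for 6 (Idh3a, Idh3b, Dlst, Sucla2, Suclg1 and Fh1). Between neighbours in this order the largest gap was 1.09 times the SD within groups, for Fh1, and 1.05 times for Sucla2. For the other 8 genes no gap between neighbours reached 1 such SD. After quantile normalization 16α-LE2 was lowest for 2 genes, estradiol for 1, the beta-titled group for 3 and placebo for 4.

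**Figure D1:**
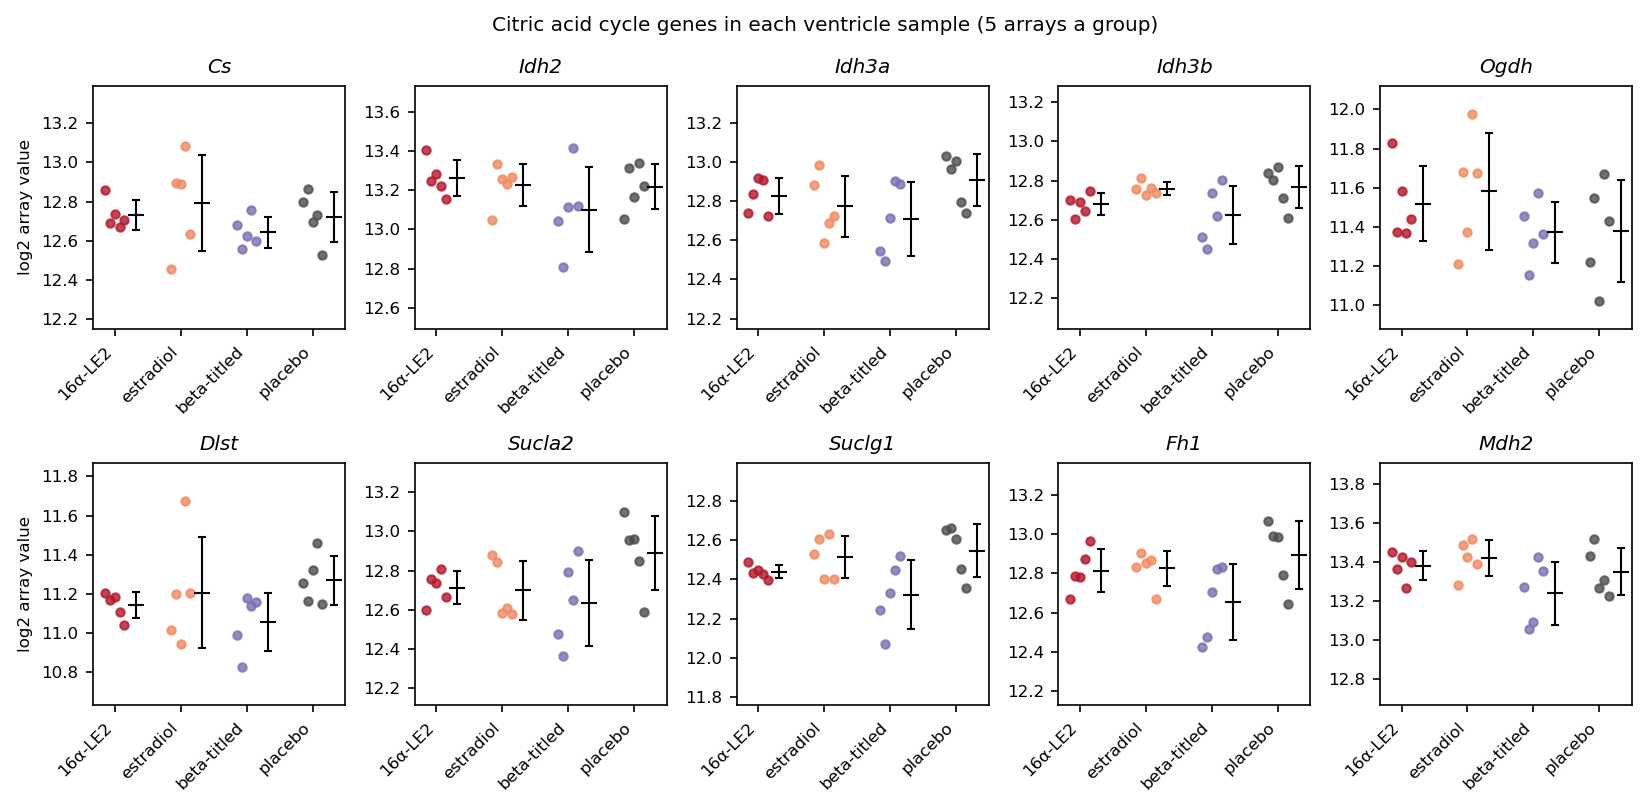
Log2 array values (y axis) of the 10 cycle genes by group (x axis), 1 point for each of 5 arrays a group, with the group mean and SD as a black bar beside them. The groups overlap for every gene, and all panels span the same number of log2 units.

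The cycle begins with citrate synthase, encoded by Cs, which joins acetyl-CoA to oxaloacetate. Cs had log2 values of 12.86, 12.69, 12.74, 12.67 and 12.70 in the 16α-LE2 ventricles and 12.46, 12.90, 12.89, 13.08 and 12.63 in the estradiol ventricles. It had 12.68, 12.56, 12.62, 12.76 and 12.60 in the beta-titled ventricles and 12.80, 12.86, 12.70, 12.73 and 12.53 in the placebo ventricles. The estradiol samples held both the lowest and the highest value of the 20, and all groups overlapped. Log2 differences from placebo came to 0.01 with 16α-LE2, 0.07 with estradiol and -0.08 in the beta-titled group (SE 0.10 each, limma adjusted p = 0.992, 0.729 and 0.843). The SD of the estradiol samples was 0.25 log2 units, against 0.08 with 16α-LE2, 0.08 in the beta-titled group and 0.13 with placebo.

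Isocitrate is oxidized by separate enzymes. Idh2 encodes the NADP-dependent enzyme of the matrix, and Idh3a and Idh3b encode the catalytic alpha and the regulatory beta subunit of the NAD-dependent enzyme of the cycle. Idh3a had log2 values of 12.74, 12.83, 12.92, 12.91 and 12.72 in the 16α-LE2 ventricles and 12.88, 12.98, 12.59, 12.69 and 12.73 in the estradiol ventricles. It had 12.54, 12.50, 12.71, 12.90 and 12.89 in the beta-titled ventricles and 13.03, 12.96, 13.00, 12.80 and 12.74 in the placebo ventricles. Of the 4 highest samples 3 were placebo and 1 was estradiol replicate 30, and beta-titled replicates 31 and 32 were the lowest. Against placebo the log2 differences were -0.08 with 16α-LE2, -0.13 with estradiol and -0.20 in the beta-titled group (SE 0.10 each, limma adjusted p = 0.878, 0.526 and 0.707). Idh2 ranged over 13.16 to 13.40 with 16α-LE2, 13.05 to 13.33 with estradiol, 12.81 to 13.42 in the beta-titled group and 13.06 to 13.34 with placebo. Its lowest value was again that of beta-titled replicate 32, while the highest was that of beta-titled replicate 35. The log2 differences from placebo were 0.04 with 16α-LE2, 0.01 with estradiol and -0.12 in the beta-titled group (SE 0.09 each, limma adjusted p = 0.941, 0.969 and 0.737). Idh3b ranged over 12.60 to 12.75 with 16α-LE2, 12.72 to 12.81 with estradiol, 12.45 to 12.80 in the beta-titled group and 12.61 to 12.87 with placebo. The 5 estradiol samples lay close together (SD 0.03), and all 5 of the 16α-LE2 samples were below the placebo mean. Log2 differences from placebo came to -0.09 with 16α-LE2, -0.01 with estradiol and -0.14 in the beta-titled group (SE 0.08 each, limma adjusted p = 0.812, 0.97 and 0.707).

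Oxoglutarate dehydrogenase turns 2-oxoglutarate into succinyl-CoA. Ogdh encodes its first component, the decarboxylase, and Dlst its second, the lipoyl-bearing succinyltransferase. Ogdh had log2 values of 11.83, 11.38, 11.58, 11.37 and 11.44 in the 16α-LE2 ventricles and 11.21, 11.68, 11.37, 11.98 and 11.68 in the estradiol ventricles. It had 11.46, 11.16, 11.32, 11.57 and 11.36 in the beta-titled ventricles and 11.22, 11.55, 11.02, 11.67 and 11.43 in the placebo ventricles. Ogdh was spread more widely within groups than any other of the 10, and estradiol replicate 34 and 16α-LE2 replicate 29 were its highest arrays. Against placebo the log2 differences were 0.14 with 16α-LE2, 0.20 with estradiol and -0.01 in the beta-titled group (SE 0.14 each, limma adjusted p = 0.855, 0.519 and 0.994). It was the gene with the largest difference above placebo for both compounds, and 3 of 5 samples lay above the placebo mean with each. After quantile normalization the estradiol difference was 0.35 (unadjusted p = 0.0274, limma adjusted p = 0.547), and over all alternatives the adjusted p ran from 0.313 to 0.883. Dlst ranged over 11.04 to 11.20 with 16α-LE2, 10.94 to 11.67 with estradiol, 10.83 to 11.18 in the beta-titled group and 11.15 to 11.46 with placebo. Estradiol replicate 34 held its highest value, and all 5 of the 16α-LE2 samples were below the placebo mean. The log2 differences from placebo were -0.13 with 16α-LE2, -0.06 with estradiol and -0.21 in the beta-titled group (SE 0.11 each, limma adjusted p = 0.819, 0.793 and 0.707).

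Succinyl-CoA synthetase, the step that makes ATP or GTP directly, is built from the alpha subunit encoded by Suclg1 and either of a pair of beta subunits, of which Sucla2 encodes the ATP-forming one. Sucla2 had log2 values of 12.60, 12.76, 12.74, 12.81 and 12.66 in the 16α-LE2 ventricles and 12.88, 12.85, 12.58, 12.61 and 12.58 in the estradiol ventricles. It had 12.47, 12.37, 12.79, 12.65 and 12.90 in the beta-titled ventricles and 13.10, 12.96, 12.96, 12.85 and 12.59 in the placebo ventricles. Placebo replicate 36 was low and the other 4 placebo samples were among the highest. All 5 samples of both the 16α-LE2 and the estradiol group lay below the placebo mean, and the ranges still overlapped. Log2 differences from placebo came to -0.18 with 16α-LE2, -0.19 with estradiol and -0.25 in the beta-titled group (SE 0.11 each, limma adjusted p = 0.658, 0.499 and 0.707). Sucla2 had the largest difference below placebo in each of these comparisons. Suclg1 had log2 values of 12.49, 12.43, 12.45, 12.43 and 12.40 in the 16α-LE2 ventricles and 12.53, 12.61, 12.40, 12.63 and 12.40 in the estradiol ventricles. It had 12.24, 12.07, 12.33, 12.45 and 12.52 in the beta-titled ventricles and 12.65, 12.66, 12.61, 12.45 and 12.36 in the placebo ventricles. The 16α-LE2 samples had an SD of 0.03 and lay below the placebo mean in 5 of 5, and beta-titled replicates 31 and 32 were the lowest arrays. Against placebo the log2 differences were -0.11 with 16α-LE2, -0.03 with estradiol and -0.22 in the beta-titled group (SE 0.09 each, limma adjusted p = 0.793, 0.872 and 0.707).

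Fumarase, encoded by Fh1, hydrates fumarate to malate, and malate dehydrogenase, encoded by Mdh2, closes the cycle by making oxaloacetate. Fh1 had log2 values of 12.67, 12.79, 12.78, 12.88 and 12.96 in the 16α-LE2 ventricles and 12.83, 12.90, 12.85, 12.87 and 12.67 in the estradiol ventricles. It had 12.42, 12.48, 12.71, 12.82 and 12.83 in the beta-titled ventricles and 13.07, 12.99, 12.99, 12.79 and 12.64 in the placebo ventricles. All 5 beta-titled samples were below the placebo mean, and the same 2 arrays, replicates 31 and 32, were lowest. The log2 differences from placebo were -0.08 with 16α-LE2, -0.07 with estradiol and -0.24 in the beta-titled group (SE 0.10 each, limma adjusted p = 0.878, 0.726 and 0.707). Mdh2 had log2 values of 13.45, 13.37, 13.43, 13.27 and 13.40 in the 16α-LE2 ventricles and 13.28, 13.49, 13.42, 13.52 and 13.39 in the estradiol ventricles. It had 13.27, 13.06, 13.09, 13.43 and 13.35 in the beta-titled ventricles and 13.43, 13.52, 13.27, 13.31 and 13.23 in the placebo ventricles. Beta-titled replicates 32 and 33 were the lowest arrays, and 4 of 5 samples lay above the placebo mean with 16α-LE2 and likewise with estradiol. Log2 differences from placebo came to 0.03 with 16α-LE2, 0.07 with estradiol and -0.11 in the beta-titled group (SE 0.08 each, limma adjusted p = 0.954, 0.67 and 0.731).

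Taken by comparison, 16α-LE2 against placebo had 4 of the 10 genes higher and 6 lower, with a median log2 difference of -0.08 against -0.03 over all genes tested. The 10 genes lie within the brightest 10% of all genes, 1208 of them. Over those bright genes the median was -0.10, with 82.1% below 0, and -0.001 after quantile normalization. None of the 10 was called by limma at an adjusted p under 0.05, where 27 of 12082 genes were (0.223%), and none had an unadjusted p under 0.05, where 9.01% of all genes had. The smallest adjusted p was that of Sucla2, 0.658. All 10 of the 95% confidence intervals lay between -0.40 and 0.43, within 1.35-fold, and after quantile normalization between -0.26 and 0.57, within 1.48-fold. Groups that did not overlap were found for 3.28% of all genes and for 0 of the 10. After quantile normalization the counts stayed at 4 higher and 6 lower, with a median of -0.01. With each array centred and scaled the direction turned, and all 10 were higher, with a median of 0.16. There 1 unadjusted limma p was under 0.05 (smallest limma adjusted p = 0.705). Against placebo and beta-titled arrays pooled as 1 control group, 7 were higher and 3 lower, with a median of 0.03.

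Estradiol against placebo also had 4 genes higher and 6 lower, with a median of -0.02 against -0.03 over all genes. Over the brightest 10% of all genes the median was -0.12, with 83.2% below 0, and -0.007 after quantile normalization. No gene of the whole array was called (0%), none of the 10 had an unadjusted p under 0.05 against 9.63% of all genes, and the smallest adjusted p among them was 0.499. Non-overlapping groups were found for 0.877% of all genes and for 0 of the 10. The intervals of the 10 lay between -0.41 and 0.49, within 1.41-fold, and after quantile normalization between -0.24 and 0.66, within 1.58-fold, with 1 that left out 0. Without estradiol replicate 33 there were 6 higher and 4 lower, with a median of 0.00. After quantile normalization 8 were higher and 2 lower, with a median of 0.08, and none was called. With each array centred and scaled 1 was higher and 9 lower, with a median of -0.09, so the direction turned between the scalings. Against placebo and beta-titled arrays pooled, 8 were higher and 2 lower, with a median of 0.07. This comparison and the one before share the placebo samples.

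The beta-titled group was below placebo for all 10 genes, with a median of -0.17 against -0.04 over all genes, and none was called (0% of all genes called). Sucla2, Suclg1, Fh1 and Idh3a had an unadjusted p under 0.05 (0.0247, 0.0193, 0.0194 and 0.0488, limma adjusted p = 0.707 for each), as did 5.7% of all genes. Non-overlapping groups were found for 0.844% of all genes and for 0 of the 10. On beta-titled replicates 31 and 32 all 10 genes were below their own mean over the 20 arrays, by 0.18 and 0.31 on average. The brightest 10% of all genes, 1208 of them, were lower on the same arrays, with a median deviation of -0.23 and -0.31. Between the beta-titled group and placebo, 95.2% of those bright genes were below 0, with a median of -0.18. Without both arrays the 10 genes had a median of -0.07, 9 lower and 1 higher, and no unadjusted p under 0.05. After quantile normalization 5 were higher and 5 lower, with a median of 0.00, as there were with each array centred and scaled, and the brightest 10% had a median of -0.01. In the deposited values estradiol replicate 33 had an SD over the array of 1.345. Its brightest 10% of genes had a median deviation of -0.254, while the 10 cycle genes averaged -0.037. The part of the array spread in the lower beta-titled values was not tested further.

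**Figure D2:**
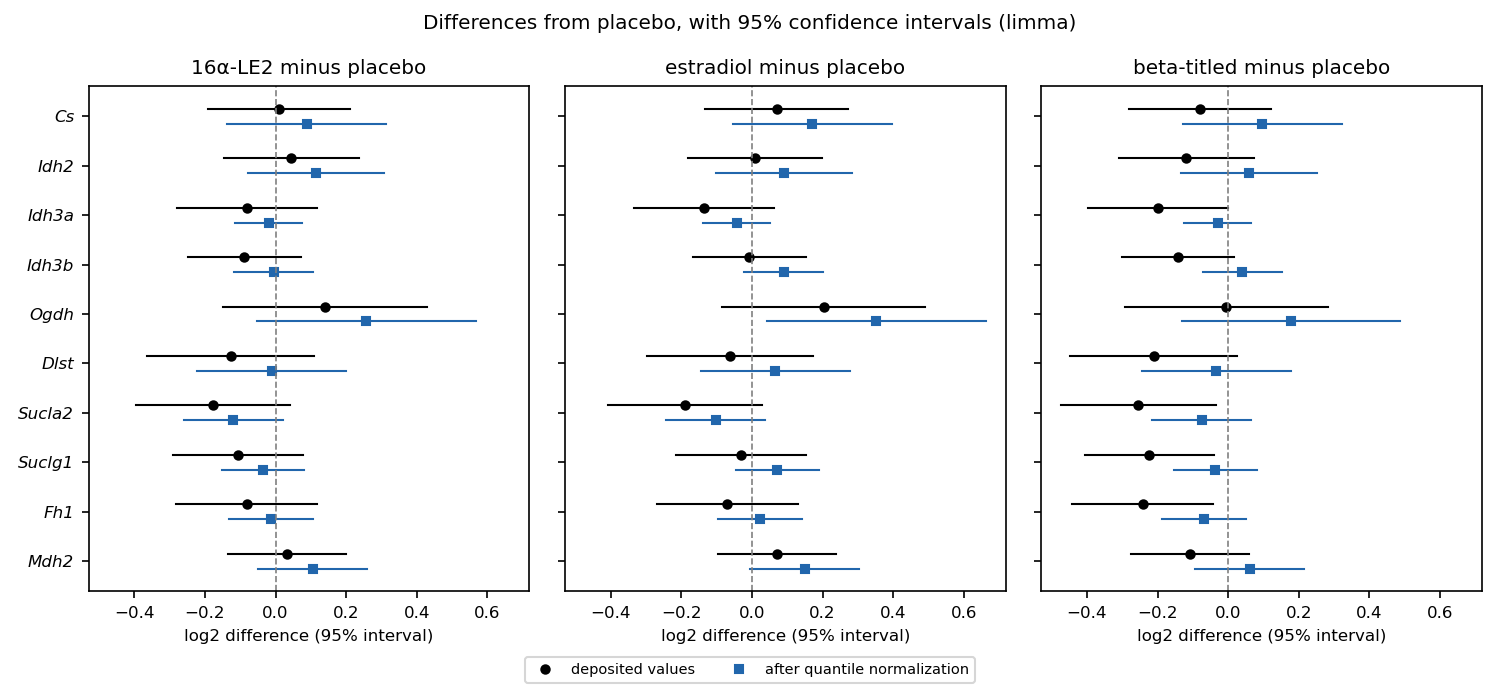
Log2 difference from placebo (x axis) of each cycle gene (y axis) for 16α-LE2, estradiol and the beta-titled group, with 95% intervals from limma. Black circles are the deposited values and blue squares the values after quantile normalization, where the beta-titled differences lie on both sides of 0.

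**Figure D3:**
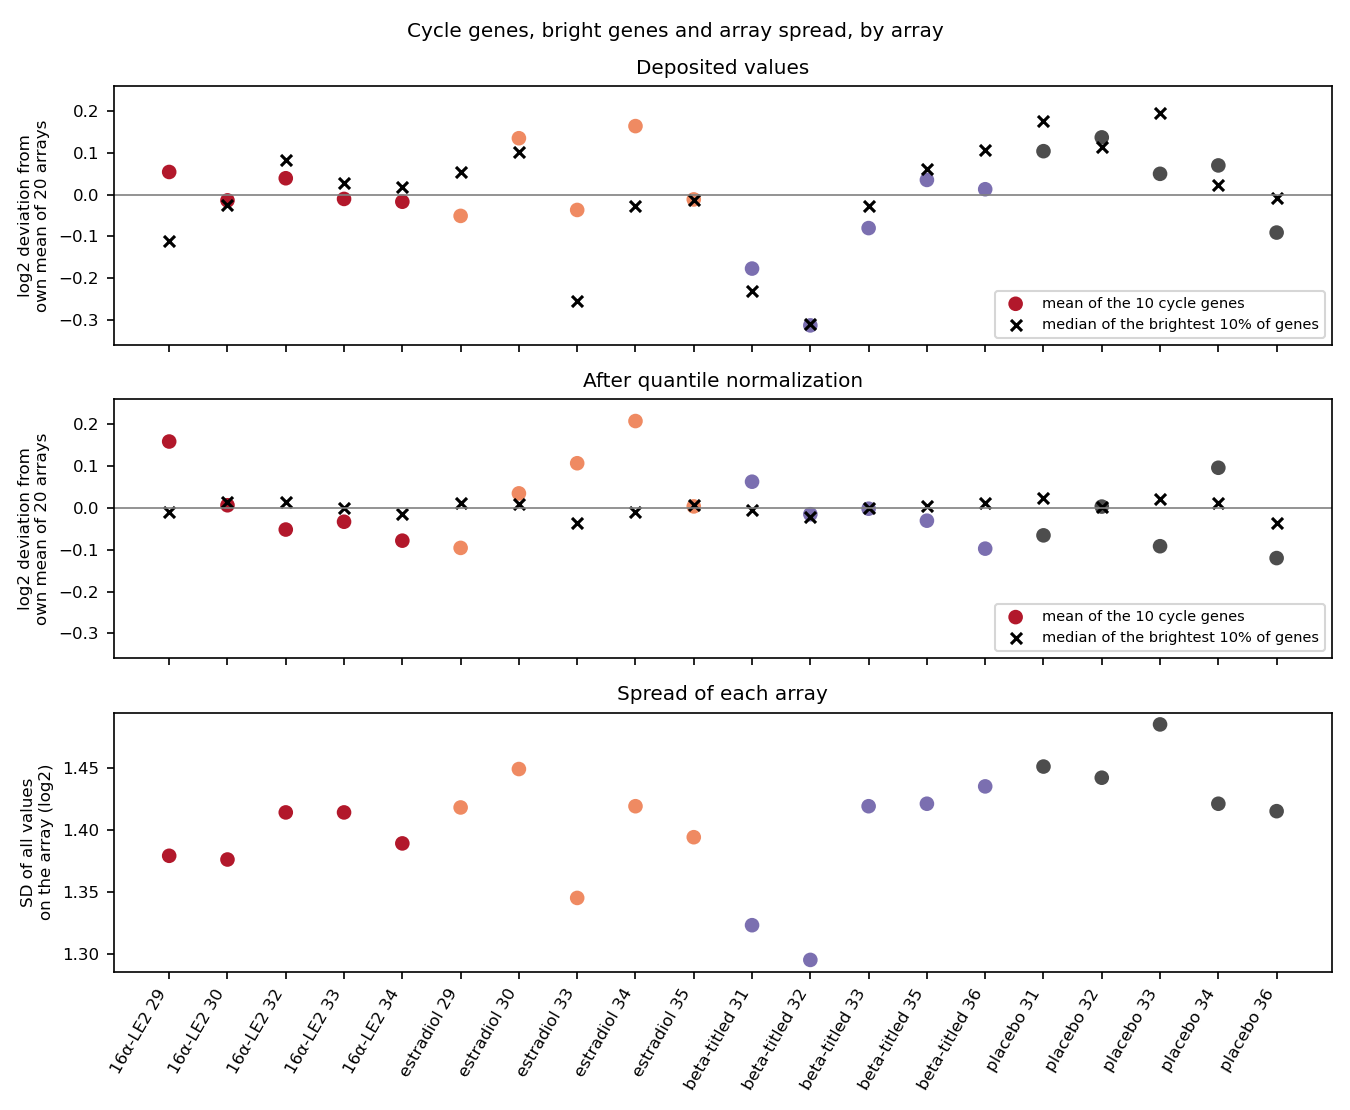
Deviation of each array (x axis) from the mean of the 20 arrays in log2 units, for the mean of the 10 cycle genes (circles, coloured by group) and the median of the brightest 10% of genes (crosses), before and after quantile normalization, with the SD of all values on each array in the bottom panel. Beta-titled replicates 31 and 32 are low in the top panel and narrow in the bottom one. Estradiol replicate 33 is also narrow and its cross is low in the top panel, while its circle lies near 0.

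With 16α-LE2 set against estradiol, 3 genes were higher and 7 lower, with a median of -0.05 against -0.02 over all genes. Over the brightest 10% of all genes the median was 0.01. None of the 10 was called, where 2 genes were (0.0166%), and none had an unadjusted p under 0.05 against 5.19% of all genes. The smallest adjusted p was that of Idh3b at 0.875, and the groups overlapped for all 10 where 0.753% of all genes had groups apart. The intervals lay between -0.35 and 0.25, within 1.28-fold, and after quantile normalization within 1.32-fold. A difference within those bounds is not shown to be absent. When each array was centred and scaled, all 10 were higher with 16α-LE2, with a median of 0.27 against 0.06 over all genes. Among the 10, 5 had an unadjusted limma p under 0.05, and the smallest limma adjusted p was 0.308. The direction of this comparison for the 10 genes turned with that scaling. After quantile normalization it was 2 higher and 8 lower, with a median of -0.06, and without estradiol replicate 33 also 2 higher and 8 lower, with a median of -0.04. Without estradiol replicate 34 it was 5 higher and 5 lower, with a median of 0.01.

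Against the beta-titled group, 16α-LE2 was higher for 10 of the 10 genes. The median was 0.12, against 0.00 over all genes and 0.08 over the brightest 10%. None of the 10 was called where 21 genes were (0.174%), and none had an unadjusted p under 0.05 against 5.6% of all genes. Estradiol was higher for 10 of the 10 as well, and its comparison shares the beta-titled samples with the one before. The median was 0.15, against 0.02 over all genes and 0.06 over the brightest 10%. No gene of the array was called (0%), and Suclg1 and Mdh2 had an unadjusted p under 0.05 (0.0409 and 0.0365, limma adjusted p = 0.925 for each) against 3.83% of all genes. Groups apart were found for 2.28% of all genes with 16α-LE2 and 0.397% with estradiol, and for 0 of the 10 in either. Without beta-titled replicates 31 and 32 the median was 0.02 with 16α-LE2 (6 higher, 4 lower) and 0.04 with estradiol (8 higher, 2 lower). After quantile normalization it was 0.02 with 16α-LE2 (7 higher, 3 lower) and 0.08 with estradiol (8 higher, 2 lower). Without estradiol replicate 33 the estradiol median was 0.15, with 10 higher. With each array centred and scaled the direction turned for estradiol, with 1 higher and 9 lower and a median of -0.09, while 16α-LE2 had 10 higher and a median of 0.18.

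Other probe sets of the same genes were compared with those used, 25 in all, of which Suclg1 and Fh1 have 1 each. The other probe sets of Cs had correlations of 0.89 and 0.65 with the main one over the 20 arrays, that of Mdh2 0.86 and that of Ogdh 0.79. Those of Idh3b had 0.43 and 0.66, and those of Dlst 0.59, 0.37 and -0.03. That of Idh2 had 0.16, and those of Sucla2 had -0.28 and -0.34. With estradiol the second Ogdh probe set was 0.16 above placebo, against 0.20 for the main one. For Cs, Idh3a, Dlst, Sucla2 and Mdh2 the probe sets lay on both sides of 0 against placebo with 16α-LE2. For Sucla2 the one above 0 lay under the filter. The Mdh2 probe sets had means of 13.348 and 13.345, with differences of 0.03 for the main one and -0.06 for the other. Idh3a had 3 further probe sets with correlations of 0.19, 0.18 and -0.26, and all 3 were above placebo with estradiol (0.17, 0.12 and 0.07) while the main one was below (-0.13). The direction of Idh3a with estradiol therefore differs by probe set. Both other probe sets of Sucla2 lay under the filter, at means of 6.70 and 6.23.

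**Figure D4:**
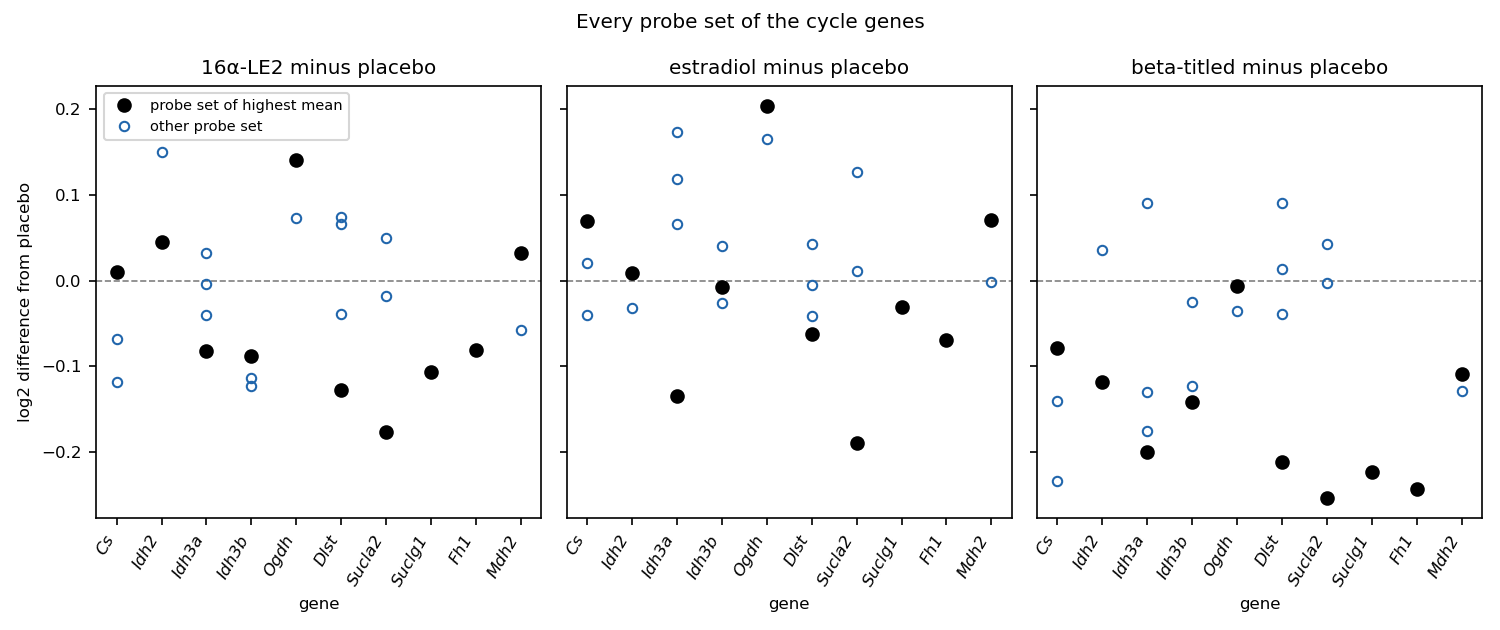
Log2 difference from placebo (y axis) of every probe set of the 10 cycle genes (x axis), for 16α-LE2, estradiol and the beta-titled group. Filled circles are the probe set of highest mean and open circles the others, which for Idh3a with estradiol lie on the other side of 0.

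The genes varied together across arrays to different degrees. Over the 45 pairs of genes the median Pearson correlation was 0.49, from -0.26 for Ogdh with Sucla2 to 0.88 for Idh3a with Sucla2, and 42 were above 0. The points share arrays and their scaling, and these values are a description. Among Idh3a, Idh3b, Sucla2, Suclg1 and Fh1, the correlations ran from 0.66 to 0.88, and these 5 were picked for their high values. After quantile normalization they ran from -0.23 to 0.59. In the deposited values Suclg1 followed the mean of the other 9 most closely (r = 0.91), and Ogdh least (r = 0.32). After quantile normalization the median was 0.33, and the closest pairs were Ogdh with Mdh2 (0.91) and Cs with Mdh2 (0.89), while Ogdh with Sucla2 was at -0.48. Both ends of the order turned: Cs (0.88) and Mdh2 (0.87) then followed the mean of the others most closely, Suclg1 and Ogdh were both at 0.67, and Idh3a and Sucla2 were lowest at -0.11 and -0.19. Within groups, with each group centred, the median over pairs was 0.40.

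**Figure D5:**
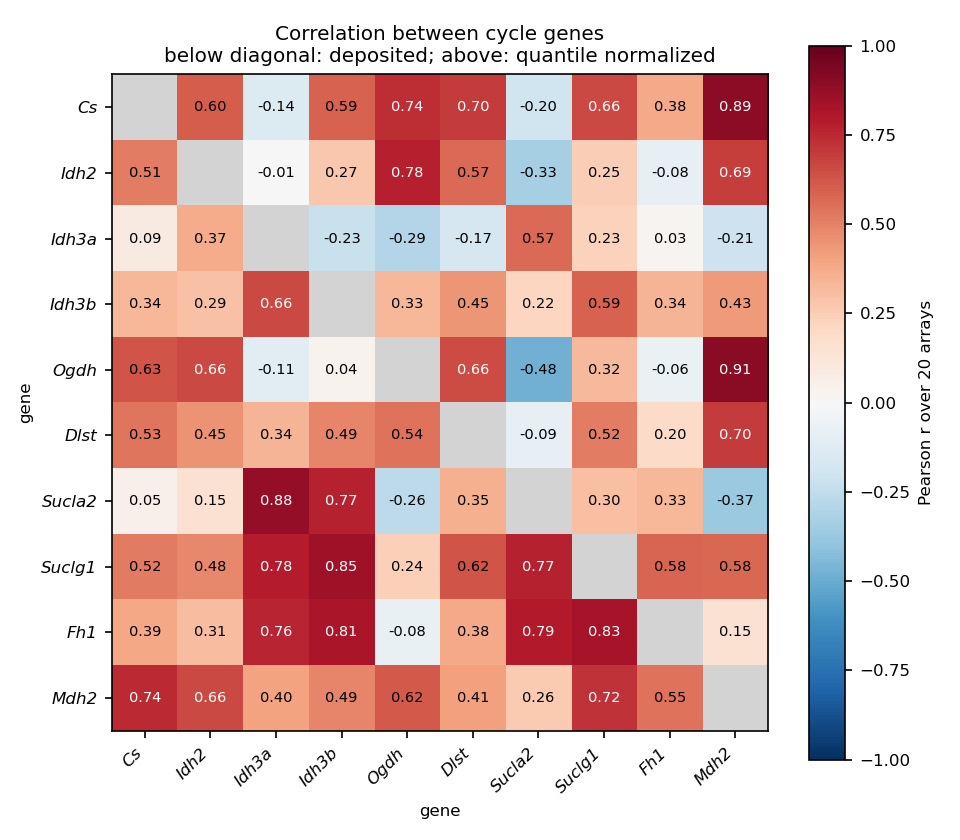
Pearson correlation over the 20 arrays for each pair of cycle genes (both axes), from blue at -1 to red at 1, below the diagonal for the deposited values and above it after quantile normalization. The block of Idh3a, Idh3b, Sucla2, Suclg1 and Fh1 is red below the diagonal, and Ogdh with Mdh2 and Cs with Mdh2 are the deepest red above it.

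Of the 12072 other genes tested, those most like the mean of the 10 over the arrays were Vdac2, a channel of the outer mitochondrial membrane (r = 0.938), Phyh, a peroxisomal enzyme of branched-chain fatty acid oxidation (0.933), and Dazap2 (0.895). Then came Ndufa9 and Ndufv1, subunits of respiratory complex I (0.895 and 0.877), Acat1, a mitochondrial thiolase (0.895), Echs1, an enoyl-CoA hydratase of beta-oxidation (0.878), and Sod2, the mitochondrial superoxide dismutase (0.872). The median over all other genes was 0.206. Without the 2 arrays farthest from the median, the correlation of Vdac2 was 0.856 and that of Echs1 0.662, the lowest of the 8. After quantile normalization none of these was among the 8 most like, which were Sipa1l2 (0.907), Ldhb (0.902), Ppp1r12b (0.901), Got2 and Gtf2i (0.890 each), Afg3l2 (0.888), Pfkm (0.885) and Slc41a1 (0.884).

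Beside the 10, 7 further genes of the cycle were tested: Idh3g, Dld, Suclg2, Sdha, Sdhb, Sdhc and Sdhd. None of the 7 was called in any comparison. With 16α-LE2 against placebo 6 were lower and 1 higher (median -0.12), and after quantile normalization 4 lower and 3 higher (-0.05). Sdhc, a membrane anchor of succinate dehydrogenase, averaged 11.36 ± 0.09 with 16α-LE2 and 11.60 ± 0.09 with placebo (SD, n = 5 each, difference -0.24, limma adjusted p = 0.536). With estradiol 5 were lower and 2 higher (median -0.08), and after quantile normalization the direction turned, with 2 lower and 5 higher (0.03). Dld, the dihydrolipoyl dehydrogenase shared with pyruvate dehydrogenase, averaged 11.53 ± 0.31 with estradiol and 11.87 ± 0.20 with placebo (SD, n = 5 each, difference -0.33, limma adjusted p = 0.499). Its lowest estradiol value, 11.02, was that of replicate 33, the array that stood apart, and the other estradiol values ran from 11.48 to 11.80. All 7 were lower in the beta-titled group than with placebo (median -0.19), and after quantile normalization 4 were lower and 3 higher (median -0.03). Idh3g, the gamma subunit of the NAD-dependent isocitrate dehydrogenase, averaged 12.92 ± 0.16 with estradiol and 12.65 ± 0.16 in the beta-titled group (SD, n = 5 each, difference 0.27, limma adjusted p = 0.925).

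No gene of the lists around the cycle was called with 16α-LE2 against placebo, where 0.223% of all genes were. Of 4 genes of the pyruvate dehydrogenase complex, which feeds the cycle with acetyl-CoA, all 4 were lower with 16α-LE2 than with placebo, with a median of -0.12, and 0 were called. After quantile normalization 3 were lower and 1 higher, with a median of -0.03. With 16α-LE2 Pdhb and Pdhx differed by -0.15 and -0.13 (limma adjusted p = 0.671 and 0.753). All 4 were also below placebo with estradiol (median -0.12) and in the beta-titled group (-0.18). After quantile normalization 2 were lower with estradiol (-0.002) and 3 in the beta-titled group (-0.006). Of 3 genes of lipoylation, which arms Dlst and its relatives, 0 were called with 16α-LE2, with Lipt2 and Lias at -0.06 and -0.06 (limma adjusted p = 0.93 and 0.935) and a median after quantile normalization of -0.02. Of 14 cytosolic counterparts and enzymes that feed or drain the cycle, 4 were higher and 10 lower with 16α-LE2 (median -0.09). Of these 0 were called, and after quantile normalization 7 were higher and 7 lower (0.00). Me1, the cytosolic malic enzyme, and Glud1, glutamate dehydrogenase, differed by -0.25 and -0.21 (limma adjusted p = 0.573 and 0.593). Of the 14, 9 were below placebo with estradiol (median -0.04) and 13 in the beta-titled group (-0.13). After quantile normalization 5 were lower with estradiol (0.06) and 7 in the beta-titled group (-0.002).

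Of 10 genes of the respiratory chain and ATP synthase all 10 were lower with 16α-LE2 than with placebo (median -0.07), 0 were called, and after quantile normalization 6 were higher and 4 lower (median 0.00). Atp5b and Atp5a1, subunits of the ATP synthase, differed by -0.10 and -0.10 (limma adjusted p = 0.746 and 0.775). In the beta-titled group all 10 were also below placebo (median -0.18). There 6 had an unadjusted limma p under 0.05, as had 5.7% of all genes, and after quantile normalization 7 were lower (-0.02). With estradiol 6 were lower and 4 higher (-0.02), and after quantile normalization 1 was lower and 9 higher (0.04). Of 9 regulators of mitochondrial genes 4 were higher and 5 lower with 16α-LE2 than with placebo (median -0.01). None was called (0), and after quantile normalization 5 were higher and 4 lower (0.03). With estradiol 2 were higher and 7 lower (-0.12), and likewise after quantile normalization (-0.04). In the beta-titled group 2 were higher and 7 lower (-0.07), and after quantile normalization 4 higher and 5 lower (-0.08). An unadjusted limma p under 0.05 was found for 2 with estradiol (9.63% of all genes) and 2 in the beta-titled group (5.7%). Tfam, the transcription factor of mitochondrial DNA, had log2 values of 9.19, 9.28, 9.24, 9.30 and 9.06 with 16α-LE2, against 9.74, 9.47, 9.78, 9.60 and 9.49 with placebo. These groups did not overlap, as those of 3.28% of all genes did not, and the difference was -0.40 ± 0.12 (SE, unadjusted p = 0.00217, limma adjusted p = 0.176). Tfam had 9.58, 9.48, 9.01, 9.19 and 9.30 with estradiol and 8.98, 8.98, 9.48, 9.30 and 9.41 in the beta-titled group. Both of these groups overlapped placebo, and the beta-titled difference from placebo was -0.39. Values of Tfam below placebo were therefore not particular to 16α-LE2. Gabpa, a subunit of the ETS factor GABP, differed by -0.21 with 16α-LE2 (limma adjusted p = 0.634).

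Markers of the cell types a ventricle can hold are set beside these values. Of the 10 cardiomyocyte markers 7 were lower and 3 higher with 16α-LE2 than with placebo (median -0.06), 3 lower and 7 higher with estradiol (0.03), and 9 lower and 1 higher in the beta-titled group (-0.13), with 0 called. After quantile normalization 5 were lower and 5 higher with 16α-LE2 (median 0.00), and the median in the beta-titled group was 0.00. The mean over 8 fibroblast and matrix markers ranged from 9.44 to 9.62 with 16α-LE2 and from 9.71 to 10.34 with placebo, with 8 of 8 lower and 1 called, Col3a1, a fibrillar collagen, and 7 of 8 lower after quantile normalization. All 6 endothelial markers were lower with 16α-LE2 than with placebo (median -0.31, and -0.19 after quantile normalization, again 6 of 6), with 0 called. Of these, 5 had an unadjusted p under 0.05, as had 9.01% of all genes. Tek and Emcn, named after their values were seen, had groups that did not overlap, as had 3.28% of all genes. Of the 8 fibroblast and matrix markers, 5 had an unadjusted p under 0.05 and 1 had groups that did not overlap. The mean of the 6 endothelial markers ranged from 8.91 to 9.30 with 16α-LE2 and from 9.28 to 9.64 with placebo. In the beta-titled group all 6 were also below placebo (median -0.17), and 3 after quantile normalization (-0.02). With estradiol 4 were lower and 2 higher (-0.04). Of 6 smooth muscle and pericyte markers 3 were lower and 3 higher with 16α-LE2 than with placebo (median -0.13), 0 called and 3 with an unadjusted p under 0.05. The 7 macrophage markers were 6 higher and 1 lower with 16α-LE2 (median 0.02), and 3 higher and 4 lower with estradiol (-0.01). All 7 were lower in the beta-titled group (-0.13), and 5 after quantile normalization (-0.04), with 0 called. Their mean ranged from 9.17 to 9.40 with 16α-LE2, 9.10 to 9.58 with estradiol, 8.97 to 9.37 in the beta-titled group and 8.70 to 9.91 with placebo. The mean of 3 atrial markers ranged from 7.31 to 10.05 with 16α-LE2, 8.39 to 11.30 with estradiol, 7.96 to 10.01 in the beta-titled group and 8.28 to 9.70 with placebo, with 0 called. The part of these markers in the values of the cycle genes was not tested. The mean of 3 red blood cell markers ranged from 7.98 to 8.88 with 16α-LE2 and from 7.57 to 8.01 with placebo, with 3 tested markers and 1 called, Slc4a1, the red cell anion exchanger. Adipoq of white fat and Upk3b, Msln and Wt1 of mesothelium lay below the filter, as did Ucp1 and Elovl3 of brown fat. Lep of the white fat list passed it at a mean of 7.30, and Plin1 and Cfd had no single-symbol probe set. Cidea of the brown fat list had a mean of 10.12.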

How the data were processed

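Each of the 20 samples, 5 a group, was hybridized to an Affymetrix mouse array after biotin labelling of 100 ng total RNA, per the labels' protocols. The authors' deposited values, 45101 probe sets an array, are on a log2 scale. That unit was read from the values (5.07 to 15.31), and log base, summarization software and normalization: not given in the sources used here. After 64 control probe sets were left out, 34945 had exactly 1 gene symbol in the platform annotation, 932 several and 9160 none. A gene was represented by its single-symbol probe set of highest mean over the 20 arrays, and kept where that mean exceeded 6.93, the median over probe sets. All arrays were fitted with limma 3.58.1 in R 4.3.3 (group means, eBayes with intensity trend), and a gene counted as called where its p, adjusted by Benjamini-Hochberg over 12082 genes, was under 0.05. The fit was tested on simulated data with independent noise for each gene and array. No shift shared by the genes of an array was simulated, so the differences in array spread were not covered. The number of arrays limits the precision.

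The genes and lists were chosen with earlier results of these data known. Named genes were the 10, the rest of the cycle, of each other list the called genes or else the 2 of smallest p with 16α-LE2 against placebo, and the 8 genes most like the mean of the 10 by Pearson correlation. Genes singled out beyond these, among them the other cycle genes with values, marker genes and the closest genes after quantile normalization, were chosen after their values were seen. Samples that share a replicate number did not deviate together (17 pairs, median correlation -0.02, against 0.01 for 133 other pairs), so the numbers were not used as pairs. Promoters came from RefSeq (GRCm38.p6), where Idh3a was not matched. Alternatives covered scaling, filter, probe set summary, array weights, groups in the fit, a replicate block, pooled controls, the threshold and each array left out. Figures were drawn with matplotlib 3.10.9.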

Additional observations from a re-analysis of the deposited data

How the results depend on the processing

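None of the 10 cycle genes, and none of the 7 other cycle genes, was called under any alternative run, and the smallest adjusted p reached by a cycle gene was 0.217, for 16α-LE2 against placebo with array weights. With each array left out in turn, the median of the 10 ranged from -0.13 to -0.04 for 16α-LE2 against placebo, from -0.06 to 0.00 for estradiol, and from -0.21 to -0.12 for the beta-titled group. Between groups it ranged from -0.07 to 0.01 for 16α-LE2 against estradiol, from 0.07 to 0.16 for 16α-LE2 against the beta-titled group and from 0.11 to 0.19 for estradiol against it. With the replicate block estradiol against placebo had 3 genes higher and 7 lower, with a median of -0.08. The number of the 10 genes that kept their sign under every alternative was 1 for 16α-LE2 against placebo, 2 for estradiol, 5 for the beta-titled group, 0 for 16α-LE2 against estradiol, 5 for 16α-LE2 against the beta-titled group and 1 for estradiol against it. Counts of all genes called moved more, and the cause was not tested. For 16α-LE2 against placebo (27) they were 15 after scaling, 16 with the mean of probe sets, 357 with array weights, 62 at an adjusted p under 0.10, 71 with pooled controls, 46 after quantile normalization without estradiol replicate 33, and 8 (placebo replicate 31) to 75 (estradiol replicate 33) with 1 array left out. For 16α-LE2 against estradiol (2) they were 4 without a filter, 0 with the mean of probe sets, 20 with array weights, 3 after quantile normalization or scaling, 6 at 0.10, 4 without beta-titled replicates 31 and 32, 0 after quantile normalization without estradiol replicate 33, and 0 (16α-LE2 replicate 30, 32, 33 or 34, and estradiol replicate 30, 34 or 35) to 11 (16α-LE2 replicate 29) with 1 array left out. For 16α-LE2 against the beta-titled group (21) they were 32 after quantile normalization, 122 with array weights, 46 with only those groups in the fit, 34 at 0.10, 2 without beta-titled replicates 31 and 32, 7 so after quantile normalization, 64 after quantile normalization without estradiol replicate 33, and 7 (16α-LE2 replicate 30 or 33 or beta-titled replicate 31) to 37 (estradiol replicate 33) with 1 array left out. With 1 array left out, estradiol had 0 to 1 genes called against placebo (1 without 16α-LE2 replicate 29) and 0 to 1 against the beta-titled group (1 without beta-titled replicate 35). With the replicate block the counts were 36, 0 and 0 against placebo, 4 for 16α-LE2 against estradiol, and 15 and 0 against the beta-titled group, with 0 cycle genes called. Leaving out estradiol replicate 33 or beta-titled replicates 31 and 32 together with quantile normalization, and leaving out that beta-titled pair alone, were chosen after seeing the data. No background signal was used, so probe sets at the bottom of the range, such as the lesser ones of Sucla2, are not separated from background.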
